A study of Mus musculus with 12 samples.

Results

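The mouse genome carries 20 carboxylesterase genes (Ces genes) on chromosome 8 in the annotation used, and the 10 described here are Ces1b, Ces1c, Ces1d, Ces1e, Ces1f, Ces1g, Ces2a, Ces2e, Ces3a and Ces3b. They were chosen by gene symbol with measured differences between the diet groups of these same mice already known, so their differences between groups are given as descriptions and no count over the 10 genes is read as evidence. All 10 passed the filter on low counts, among 15061 features tested out of 37720 listed, and 6 of the other 10 genes of the family passed it too. RNA was sequenced from whole livers of 12 adult male C57Bl/6J mice, 3 in each of 4 groups. RF.Ctrl mice ate a regular-fat control diet and RF.SAAR mice a regular-fat diet restricted in sulfur amino acids, while HF.Ctrl and HF.SAAR mice ate the high-fat control and the high-fat restricted diet. Every group ate its diet for 7 days, every diet lacked cysteine, and the restricted diets held less methionine, replaced by glutamic acid. All mice were housed singly and went without food for a short time before euthanasia. The paper reports that its mice also received an injection of deuterium oxide and then deuterium-labelled drinking water. The RF and HF diets came from different suppliers, so fat content and any other difference between the suppliers' diets cannot be told apart.

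Carboxylesterases are serine hydrolases that cleave ester, thioester and amide bonds, and most of those made in hepatocytes stay in the lumen of the endoplasmic reticulum. In liver they hydrolyse many ester drugs and pesticides, and several also act on triacylglycerol, cholesteryl esters and retinyl esters. The family arose by tandem duplication, so neighbouring genes are close paralogs whose short reads can be hard to assign.

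The 6 Ces1 genes described here lie on the minus strand from Ces1b, at chromosome 8 positions 93056728 to 93080017, to Ces1g, at 93302369 to 93337308. The Ces2 and Ces3 genes lie on the plus strand from Ces2a, at 104734003 to 104741634, to Ces3b, at 105083753 to 105093929 (GRCm38). All 10 are protein-coding, and the most abundant transcript of each has 12 to 14 exons. The most alike coding sequences were those of Ces3a and Ces3b, identical at 95.3% of aligned positions with an unbroken identical run of 194 bases. Ces1b and Ces1c followed at 88.8%, with a longest run of 118 bases, then Ces2a and Ces2e at 83.1% and Ces1d and Ces1g at 81.5%. The lowest identity, 53.5%, was between Ces1e and Ces3b.

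**Figure D1:**
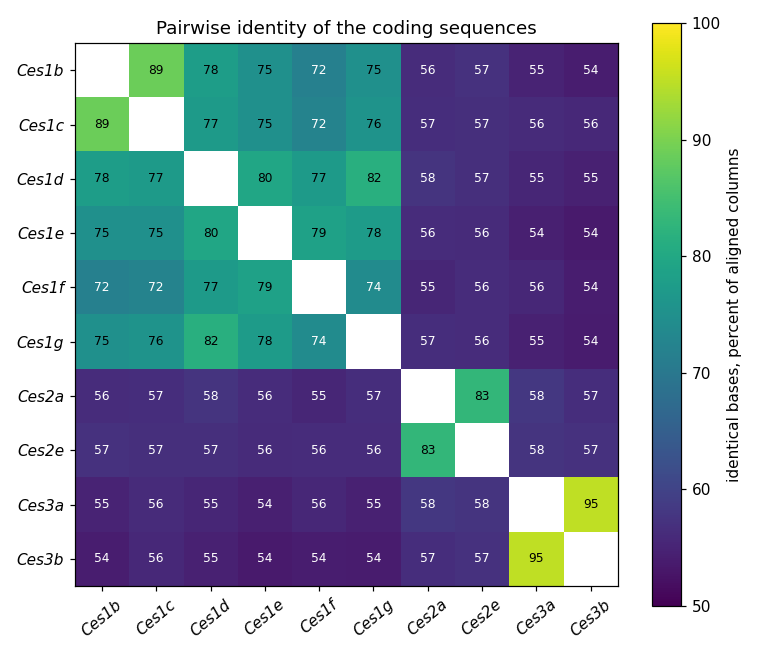
Identity between the coding sequences of the most abundant transcripts of the 10 genes, as the percent of aligned positions that hold the same base; both axes list the genes in order along chromosome 8 and the colour and number give the percent. Ces3a and Ces3b, at 95.3%, and Ces1b and Ces1c, at 88.8%, are the closest pairs.

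Sequence sharing bears on the values below to differing degrees, because reads were assigned to transcripts by their 31-base words. Of these words in the main Ces3a transcript, 42.6% also occur in Ces3b transcripts, and 36.1% of those of Ces3b occur in Ces3a. For Ces2a the share found in any other gene was 37.4%, mostly in Gm7208 (30.9%). It was 30.1% for Ces1c and 23.9% for Ces1b, whose closest match was each other. The remaining 5 genes shared 5.54% (Ces1f) to 11.9% (Ces2e) of their words with other genes. The reads were longer than 31 bases, so these are shares of words and not of reads that could not be assigned. Differences of Ces3a, Ces3b, Ces2a, Ces1b and Ces1c may therefore be partly shared between paralogs, and this was not tested.

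The close pair Ces1b and Ces1c is also alike around a listed transcription start, although only Ces1b was called different between control and restricted mice. Their 300-base windows around the transcription start (RefSeq, GRCm38.p6) are printed 5′ to 3′ on the minus strand, with capitals for bases that differ or are unmatched inside the aligned stretch. RefSeq lists 2 starts for Ces1b, and the window that aligns with that of Ces1c is shown, chr8:93079891-93080190. It reaches further into the annotated Ces1b gene, which begins at 93080017, than the other window, chr8:93079968-93080267. No identity is given for that other window. The Ces1c window is chr8:93131234-93131533.
Ces1b: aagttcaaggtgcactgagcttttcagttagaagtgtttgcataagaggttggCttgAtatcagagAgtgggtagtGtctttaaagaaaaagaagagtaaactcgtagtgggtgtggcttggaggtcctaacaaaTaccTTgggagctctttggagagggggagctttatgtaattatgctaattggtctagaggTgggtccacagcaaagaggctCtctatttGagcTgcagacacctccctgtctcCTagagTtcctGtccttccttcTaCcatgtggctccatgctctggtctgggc
Ces1c: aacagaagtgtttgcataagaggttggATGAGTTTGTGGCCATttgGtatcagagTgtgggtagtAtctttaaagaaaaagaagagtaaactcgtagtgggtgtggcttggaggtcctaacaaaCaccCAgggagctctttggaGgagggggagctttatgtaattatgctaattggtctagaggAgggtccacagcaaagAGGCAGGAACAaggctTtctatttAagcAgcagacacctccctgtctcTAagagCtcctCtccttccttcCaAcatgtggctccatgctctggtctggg
The windows were identical at 253 of 297 aligned positions (85.2%). Much of the difference is a few inserted stretches in Ces1c, which has 44 bases in capitals against 17 in Ces1b. The window of Ces3b, the gene with the largest difference on restriction among the 10, is chr8:105083505-105083804 on the plus strand, with capitals for the letters TATAAA and CCAAT.
Ces3b: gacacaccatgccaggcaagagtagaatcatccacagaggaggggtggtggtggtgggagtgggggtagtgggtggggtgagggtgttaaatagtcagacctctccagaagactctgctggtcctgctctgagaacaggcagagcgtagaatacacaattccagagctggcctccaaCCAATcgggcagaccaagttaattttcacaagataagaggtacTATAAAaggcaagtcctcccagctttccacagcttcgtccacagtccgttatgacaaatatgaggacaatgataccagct
RefSeq windows were found for 7 of the 10 genes. CCAAT, on either strand, was in the windows of 5 of them (Ces1b, Ces1c, Ces1g, Ces2a and Ces3b) and in 37.4% of all 32851 windows. TATAAA was in 2 (Ces1g and Ces3b) against 13.6% of all windows. TGACNNNGC, the core letters of the antioxidant response element, was in none of the 7 and in 12.4% of all windows. These are letter matches only and say nothing of binding.

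Levels between genes are compared as TPM (a unit corrected for transcript length). In RF.Ctrl mice the order was Ces3a (1655 ± 182 TPM, SD, n = 3), Ces1c (1199 ± 83.0), Ces3b (397 ± 66.5), Ces1f (192 ± 3.99), Ces1d (159 ± 8.85), Ces2a (113 ± 20.2), Ces1e (86.0 ± 6.20), Ces2e (74.8 ± 7.35), Ces1g (72.2 ± 12.0) and Ces1b (30.0 ± 2.09). Neighbours in this order did not overlap down to Ces2a, whereas the ranges of Ces2a and Ces1e, of Ces1e and Ces2e and of Ces2e and Ces1g overlapped. Ces3a was the 69th most abundant gene of the liver table in RF.Ctrl mice and Ces1c the 94th, while Ces1b was the 2237th. In restricted mice Ces1c had the highest mean, at 1604 ± 251 TPM in RF.SAAR and 1474 ± 89.3 TPM in HF.SAAR mice, against 1372 ± 125 and 1074 ± 143 TPM of Ces3a. The ranges of both genes overlapped in RF.SAAR mice and did not in HF.SAAR mice.

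As shares of the summed TPM of all 20 family genes, Ces1c made up 29.8% ± 0.745 in RF.Ctrl, 40.2% ± 1.68 in RF.SAAR, 29.0% ± 1.81 in HF.Ctrl livers and 44.3% ± 1.44 in HF.SAAR mice (SD, n = 3). Ces3a took 41.1% ± 0.959, 34.5% ± 0.876, 43.1% ± 2.05 and 32.2% ± 2.07 in the same order, and Ces3b 9.83% ± 1.02, 4.33% ± 0.647, 9.57% ± 1.51 and 4.19% ± 0.824. Ces1b, the smallest of the 10 in control mice, took 0.751% ± 0.0939, 2.07% ± 0.320, 0.913% ± 0.0166 and 3.02% ± 0.392. In these shares the restricted mice had more Ces1 and less Ces3 RNA than their controls with no overlap. A share moves when any member moves, so it does not show that Ces1c itself was higher.

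**Figure D2:**
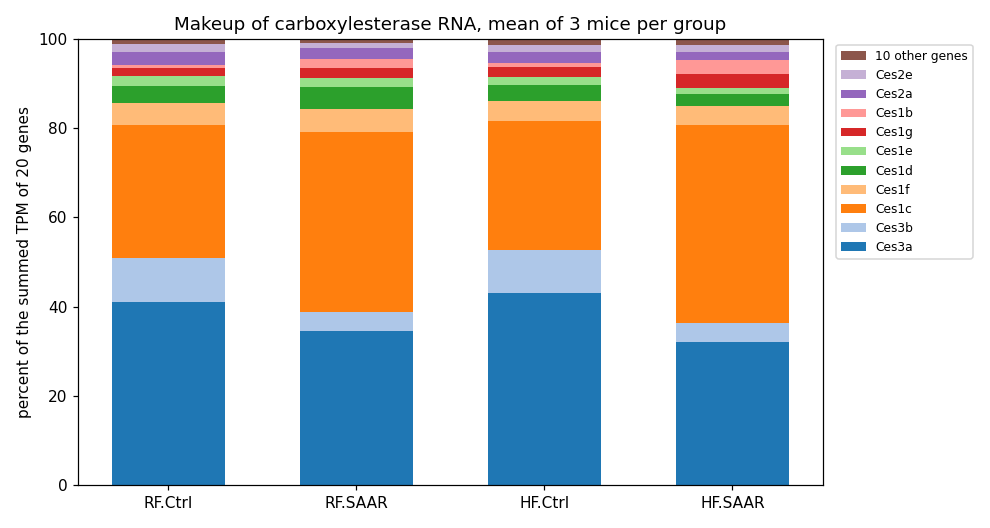
Stacked bars of the mean share of each gene in the summed TPM of the 20 carboxylesterase genes, in percent, for the 4 groups (3 mice each), with the 10 genes not described individually in the plot as 1 segment. Ces1c is 29.8% of the bar in RF.Ctrl livers and 40.2% in RF.SAAR mice, and Ces3b 9.83% and 4.33%.

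The libraries held 16203094 to 21230092 estimated counts. From here on, levels are CPM (counts scaled to one TMM-adjusted library total) and differences come from 1 edgeR fit of all features over the 12 mice, with p-values adjusted over all 15061. A gene is called at an adjusted p under 0.05. The 9 hepatocyte markers found of 10 listed summed to 88992 to 101685 CPM in RF.Ctrl livers, 78919 to 85773 in RF.SAAR, 79345 to 95751 in HF.Ctrl livers and 80687 to 92127 in HF.SAAR mice, so that every RF.SAAR mouse was below every RF.Ctrl mouse. None of the 9 was called on regular fat, where their median log2 difference was -0.21, against -0.028 on high fat, and the part of this shift in the regular-fat differences of the Ces genes was not tested. The 26 pancreatic acinar markers summed to 81.9 to 1742 CPM in RF.Ctrl livers and 41.6 to 99.1 in RF.SAAR mice. On high fat they summed to 81.1 to 7503 CPM in HF.Ctrl livers and 72.2 to 19066 in HF.SAAR mice. The highest sums were in HF.SAAR mouse 3 and HF.Ctrl mouse 2. Fits that left out the acinar genes, or both of these mice, changed some calls, as given below. Whether acinar RNA was the cause was not tested. Adipose, kidney tubule, macrophage and skeletal muscle marker lists summed to at most 104.5, 117.8, 429 and 883 CPM. The 9 intestinal markers summed to 211 to 226 CPM in RF.Ctrl livers, 161 to 659 in RF.SAAR, 197 to 240 in HF.Ctrl livers and 299.8 to 704 in HF.SAAR mice, without overlap on high fat, and their part in the results was not tested. Of these 9, 4 passed the low-count filter, with a median log2 difference of 0.19 on high fat and none called. Lct, Krt20, Cdx1 and Cdx2 did not pass, nor did Sis, a defining marker at 0 in every mouse. Before adjustment 2 had a p under 0.05 on high fat. These were Apoa4, an apolipoprotein gene that liver also expresses, at 1.93 (SE 0.558, adjusted p = 0.155) and Lgals4 at 0.61 (SE 0.201, adjusted p = 0.184). The median lay below both, so the other tested markers did not share this rise. In whole liver, fewer cells of a type and less RNA per cell cannot be told apart.

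The question of the first comparison is how restriction altered these genes on regular fat. Of the 10 genes 1 was called higher on the restricted diet (0.578% of all features were called higher) and 3 were called lower (0.863% of all features). The median log2 difference was -0.32 over the 10 genes and -0.0015 over all features. On high fat, 1 was called higher with restriction (0.956% of all features) and 6 lower (0.949%), with a median of -0.64 against -0.0015 over all features. In CPM, groups did not overlap in 1 gene that was higher and 6 that were lower on regular fat. There 8.51% and 9.67% of all features were higher and lower without overlap. On high fat the groups did not overlap in 2 that were higher and 7 that were lower, against 8.85% and 8.98% of all features. In TPM the regular-fat ranges of Ces1e, Ces1f, Ces2a and Ces3a overlapped, while Ces1c and Ces1d were higher in every restricted mouse. On high fat the TPM ranges of Ces1e, Ces1f and Ces2e overlapped. The other splits held in TPM. Because the 10 genes were picked with these results known, the counts describe the choice as much as the family.

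**Figure D3:**
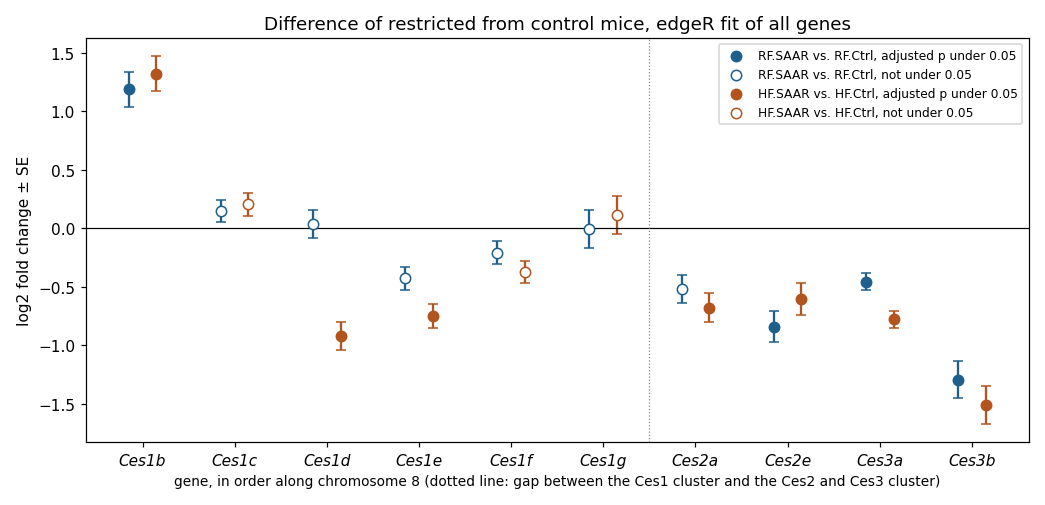
Log2 fold change (points) with its standard error (bars) of each gene in RF.SAAR against RF.Ctrl (blue) and HF.SAAR against HF.Ctrl (orange), with genes on the horizontal axis in order along chromosome 8; filled points have an adjusted p under 0.05. Ces1b is at 1.19 and 1.32, and Ces3b at -1.30 and -1.51.

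Ces3a and Ces3b, a pair of neighbouring liver esterase genes, were lower in restricted mice on either fat content. Ces3b was at 612, 687 and 585 CPM in the 3 RF.Ctrl mice and 271, 292 and 204 in the RF.SAAR mice. It was at 685, 652 and 526 CPM in HF.Ctrl livers and 176, 233 and 245 in HF.SAAR mice. Every restricted mouse was below every control mouse. Ces3b fell by 1.30 on the log2 scale in RF.SAAR (SE 0.158, adjusted p = 0.00200), to 0.407 times the control level, and by 1.51 in HF.SAAR (SE 0.159, adjusted p = 0.000256), to 0.351 times.

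Ces3a was at 2343, 2332 and 2440 CPM in RF.Ctrl livers and 1802, 1730 and 1653 in RF.SAAR mice. In HF.Ctrl mice it was at 2455, 2438 and 2512 CPM and in HF.SAAR mice at 1475, 1361 and 1481. These groups too were fully apart in CPM, with an SD of at most 74.9 CPM in any group. In TPM the regular-fat ranges overlapped, at 1452 to 1803 in RF.Ctrl and 1289 to 1516 in RF.SAAR mice. The high-fat ranges did not overlap in TPM. Ces3a fell by 0.46 in RF.SAAR (SE 0.0744, adjusted p = 0.00892) and by 0.78 in HF.SAAR mice (SE 0.0747, adjusted p = 0.000113). The first of these calls was lost when RF.Ctrl mouse 3 was left out (adjusted p = 0.0507), with scaling to library size alone (0.105), in a fit of the 2 groups alone (0.0698) and for the most abundant transcript alone (0.0605).

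The ratio of Ces3b to Ces3a in TPM was 0.239 ± 0.0221 in RF.Ctrl, 0.125 ± 0.0196 in RF.SAAR, 0.223 ± 0.0439 in HF.Ctrl livers and 0.131 ± 0.0296 in HF.SAAR mice (SD, n = 3). It was lower in every restricted mouse than in any control mouse. Both genes are spread over several transcripts. The main coding transcript of Ces3b held 48.0% ± 5.80 of its TPM in RF.Ctrl livers and 62.1% ± 4.56 in RF.SAAR mice, and a retained-intron transcript 25.8% ± 4.18 and 17.6% ± 4.12. The main transcript of Ces3a held 61.7% ± 5.72 and 64.3% ± 4.91. Summed as 1 feature, which removes any misassignment between the pair, the Ces3 genes differed by -0.60 in RF.SAAR (SE 0.0742, adjusted p = 0.00241) and by -0.90 in HF.SAAR mice (SE 0.0746, adjusted p = 2.53e-05).

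Ces1b was the one gene of the 10 that was called higher on restriction. It was at 54.3, 44.8 and 53.6 CPM in RF.Ctrl livers and 144, 114 and 90.4 in RF.SAAR mice. In HF.Ctrl mice it was at 59.3, 58.0 and 61.4 CPM and in HF.SAAR mice at 163, 150 and 134. All restricted mice were above all control mice, and the RF.SAAR mice spread the most. Ces1b rose by 1.19 in RF.SAAR (SE 0.149, adjusted p = 0.00225), to 2.28 times the control level, and by 1.32 in HF.SAAR mice (SE 0.150, adjusted p = 0.000468), to 2.50 times. The call stood in all 12 fits that left out 1 mouse and in the other 10 settings of each comparison, subfamily sums aside.

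Ces1c, which encodes the carboxylesterase secreted into mouse plasma, is the nearest paralog of Ces1b and far more abundant. It was at 1845, 1858 and 1931 CPM in RF.Ctrl livers and 2293, 2156 and 1791 in RF.SAAR mice, which overlap. It was at 1790, 1802 and 1683 CPM in HF.Ctrl livers and 1887, 2199 and 2001 in HF.SAAR mice, which do not overlap. The differences, 0.15 (SE 0.0976, adjusted p = 0.590) and 0.21 (SE 0.0976, adjusted p = 0.412), did not pass the test. The second passed under scaling to library size alone (adjusted p = 0.0279). The ratio of Ces1b to Ces1c in TPM was 0.0251 ± 0.00255 in RF.Ctrl livers and 0.0512 ± 0.00588 in RF.SAAR mice, and 0.0315 ± 0.00199 in HF.Ctrl livers and 0.0684 ± 0.0103 in HF.SAAR mice (SD, n = 3).

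Ces1d encodes a triacylglycerol hydrolase of the endoplasmic reticulum that is known for mobilising stored lipid for very-low-density lipoprotein. On regular fat its levels overlapped in CPM, at 291, 244 and 269 in RF.Ctrl livers and 294, 288 and 242 in RF.SAAR mice. In TPM every RF.SAAR mouse was above every RF.Ctrl mouse. On high fat its levels were 241, 219 and 234 CPM in HF.Ctrl livers and 115, 144 and 109 in HF.SAAR mice. The HF.SAAR mice were below the mice of all 3 other groups. The difference was 0.036 in RF.SAAR (SE 0.121, adjusted p = 0.951), while Ces1d fell by 0.92 in HF.SAAR mice (SE 0.122, adjusted p = 0.00150), to 0.528 times the HF.Ctrl level. The sign of the first difference turned without RF.Ctrl mouse 2, RF.SAAR mouse 1 or RF.SAAR mouse 2, to values between -0.026 and -0.00046.

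Ces1e encodes egasyn, the protein that anchors beta-glucuronidase in the endoplasmic reticulum, and Ces1f a second triacylglycerol hydrolase. Ces1e was at 139, 123 and 143 CPM in RF.Ctrl livers and 104, 97.1 and 99.6 in RF.SAAR mice. In HF.Ctrl mice it was at 113, 91.9 and 103 CPM and in HF.SAAR mice at 59.6, 62.3 and 61.0. Restricted mice were below their controls in both settings without overlap in CPM, whereas the TPM ranges overlapped in both. The regular-fat difference of -0.43 missed the threshold (SE 0.0991, adjusted p = 0.0542) and passed it with at least 10 counts required in every mouse (0.0482), with DESeq2 (0.00167), with acinar genes left out (0.0480) and without HF.Ctrl mouse 2 (0.0433). On high fat Ces1e fell by 0.75 (SE 0.0998, adjusted p = 0.00150).

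Ces1f was at 318, 289 and 296 CPM in RF.Ctrl livers, 250, 266 and 266 in RF.SAAR, 252, 235 and 274 in HF.Ctrl livers and 178, 215 and 196 in HF.SAAR mice. Restricted mice were again below their controls in CPM, by smaller steps. In TPM the ranges overlapped on both fat contents. On regular fat the mean TPM was higher with restriction, at 209 ± 14.4 in RF.SAAR against 192 ± 3.99 in RF.Ctrl mice (SD, n = 3). The regular-fat log2 difference ran from -0.22 to -0.042 over the 10 other settings. The differences of -0.21 (SE 0.0966, adjusted p = 0.375) and -0.37 (SE 0.0968, adjusted p = 0.0759) did not pass the test, the second passing with DESeq2 (adjusted p = 0.00752). The main Ces1e transcript held 53.0% ± 3.60 in RF.Ctrl, 48.3% ± 2.85 in RF.SAAR, 50.7% ± 4.17 in HF.Ctrl livers and 44.96% ± 6.04 in HF.SAAR ones of the gene's TPM, with a second coding transcript at 31.5% to 36.7%. The main Ces1f transcript held 90.0% to 94.3%.

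Ces1g, whose product takes part in hepatic lipid handling, was at 134, 160 and 171 CPM in RF.Ctrl livers and 192, 133 and 137 in RF.SAAR mice. In HF.Ctrl mice it was at 183, 157 and 200 CPM and in HF.SAAR mice at 224, 192 and 169. Both pairs of groups overlapped. The differences were -0.0055 (SE 0.159, adjusted p = 0.995) and 0.11 (SE 0.159, adjusted p = 0.860), with the sign of the first depending on the scaling. Summed as 1 feature, all 8 Ces1 genes of the annotation differed by 0.099 on regular fat (SE 0.0897, adjusted p = 0.728) and 0.090 on high fat (SE 0.0897, adjusted p = 0.768).

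The Ces2 genes encode hydrolases that act on esters with small acyl groups and, in mouse, on acylglycerols. Ces2a was at 159, 164 and 203 CPM in RF.Ctrl livers and 110, 119 and 138 in RF.SAAR mice. On high fat it was at 141, 160 and 150 CPM in HF.Ctrl livers and 86.4, 100.1 and 95.3 in HF.SAAR mice. No restricted mouse reached its controls in CPM, and in TPM this held on high fat alone. The regular-fat difference of -0.52 missed the threshold (SE 0.121, adjusted p = 0.0553), passing it with no low-count filter (0.0470), with at least 10 counts in every mouse (0.0406) and with DESeq2 (0.00346). On high fat Ces2a fell by 0.68 (SE 0.121, adjusted p = 0.0122), a call lost without HF.SAAR mouse 1 (0.0647) and without both HF mice richest in acinar RNA (0.0857).

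Ces2e was at 138, 139 and 120 CPM in RF.Ctrl livers and 68.4, 76.4 and 76.7 in RF.SAAR mice. On high fat it was at 108, 95.8 and 142 CPM in HF.Ctrl, where mouse 3 stood above the others, and 81.6, 75.8 and 70.0 in HF.SAAR mice. The groups did not overlap in CPM on either diet, and in TPM this held on regular fat alone. Ces2e fell by 0.84 on regular fat (SE 0.135, adjusted p = 0.00833) and by 0.60 on high fat (SE 0.135, adjusted p = 0.0364). The regular-fat call was lost for the most abundant transcript alone (adjusted p = 0.0515). The high-fat call was lost in 8 of the 12 fits that left out a mouse (RF.Ctrl 2 or 3, RF.SAAR 3, HF.Ctrl 1 or 3, or any HF.SAAR mouse), with adjusted p up to 0.143, and in 5 of 10 other settings. The main transcript held 87.0% to 89.8% of the TPM of Ces2e in every group. Summed as 1 feature, all 8 Ces2 genes of the annotation, Ces2a and Ces2e among them, differed by -0.64 in RF.SAAR (SE 0.0934, adjusted p = 0.00512) and -0.55 in HF.SAAR mice (SE 0.0933, adjusted p = 0.00933).

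**Figure D4:**
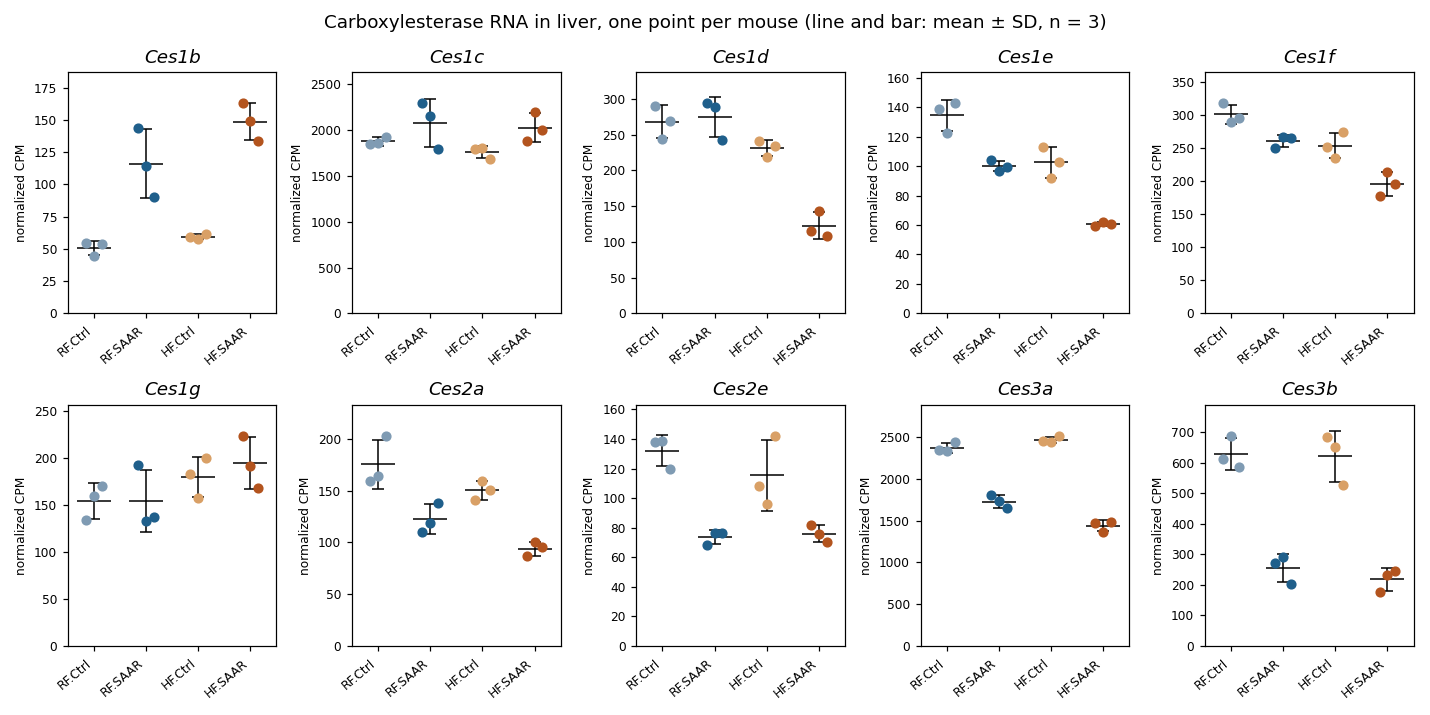
TMM-scaled CPM of each of the 10 genes (1 panel each, axis from 0) in the 12 mice by group, with 1 point per mouse, a line at the mean and a bar of 1 SD (n = 3). Ces1d is at 109 to 144 CPM in HF.SAAR mice and 219 to 294 CPM in the mice of the other groups, whereas Ces1b is at 90.4 to 163 CPM in the restricted and 44.8 to 61.4 CPM in the control mice.

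The second question was whether fat content altered these genes. Between the restricted groups, 2 of the 10 genes were called lower with high than with regular fat (0.0266% of all features were called lower), and none was called higher. Ces1d fell by 1.17 (SE 0.123, adjusted p = 0.00404), to 0.446 times the RF.SAAR level, and Ces1e fell by 0.72 (SE 0.0997, adjusted p = 0.0229). Without HF.Ctrl mouse 2 and HF.SAAR mouse 3, which had the most acinar RNA, both missed the threshold (adjusted p = 0.0908 for each). The Ces1e call was also lost without RF.SAAR mouse 1 or 3, HF.Ctrl mouse 1 or any HF.SAAR mouse, with adjusted p up to 0.144, with scaling to library size alone (0.0514), in a fit of the 2 groups alone (0.0628) and for the most abundant transcript (0.224). The groups did not overlap in 5 genes, all lower in HF.SAAR (Ces1d, Ces1e, Ces1f, Ces2a and Ces3a), where 4.71% of all features were lower without overlap. Of the 3 that were not called, Ces1f differed by -0.41 (SE 0.0968, adjusted p = 0.364), Ces2a by -0.38 (SE 0.121, adjusted p = 0.656) and Ces3a by -0.26 (SE 0.0743, adjusted p = 0.538).

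Between the control groups none of the 10 genes was called, and 0% of all features were. Before adjustment, 2 of the 10 and 552 of all features had a p under 0.05, and DESeq2 called 1 of the 10 and 31 of all features. HF.Ctrl and RF.Ctrl mice did not overlap in 1 gene that was higher (Ces1b; 4.1% of all features) and 4 that were lower (Ces1c, Ces1d, Ces1e and Ces1f; 4.46%). The largest of these differences was -0.39 for Ces1e (SE 0.0992, adjusted p = 0.717). In TPM, Ces1e alone of these genes did not overlap between the control groups.

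The last question was whether the effect of restriction differed with fat content. None of the 10 passed the test of the interaction, in which 0.00664% of all features were called, with 3 of the 10 and 482 of all features at an unadjusted p under 0.05. The difference of the 2 restriction effects was largest for Ces1d, at -0.96 (SE 0.172, adjusted p = 0.314). DESeq2 gave it an adjusted p of 0.000676, its only such call among the 10, and over all settings run the adjusted p ranged up to 0.991. For Ces1e the difference was -0.32 (SE 0.140) and for Ces3a -0.32 (SE 0.105), both with an adjusted p of 0.999, and for Ces1b it was 0.13 (SE 0.208). The comparisons share mice, so the difference of Ces1d between HF.SAAR and RF.SAAR mice and its interaction are not separate evidence.

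Of the other 10 family genes, Ces1a, Ces1h, Ces2d-ps and Ces5a did not pass the filter, with at most 12.0 estimated counts in any mouse. Ces2c, an acylglycerol hydrolase, was at 40.7, 50.7 and 38.1 CPM in RF.Ctrl livers and 20.8, 18.7 and 30.6 in RF.SAAR mice. It fell by 0.89 (SE 0.161, adjusted p = 0.0151), and differed by -0.50 on high fat (SE 0.158, adjusted p = 0.158). It shares 58.2% of its 31-base words with other genes, mostly the pseudogene Ces2d-ps. Ces4a was at 3.04, 3.57 and 2.05 CPM in HF.Ctrl livers and 0.212, 0.409 and 0.839 in HF.SAAR mice, a low-count gene with 4 to 65 estimated counts in these mice. It fell by 2.54 on high fat (SE 0.445, adjusted p = 0.0108) and differed by -1.30 on regular fat (SE 0.428, adjusted p = 0.175). Ces2b, Ces2f, Ces2g and Ces2h were called in neither comparison, at -1.25, 0.087, -0.43 and -1.13 on regular fat and -1.50, -0.076, -0.027 and -0.51 on high fat.

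Among 16 tested hydrolases of neutral lipids, Aadac, an arylacetamide deacetylase of the endoplasmic reticulum, was the single gene called by edgeR, falling by 0.49 in RF.SAAR mice (SE 0.0940, adjusted p = 0.0216), with list medians of 0.087 on regular and -0.036 on high fat. On high fat Aadac differed by -0.38 (SE 0.0939, adjusted p = 0.0608). DESeq2 called 3 of these 16 on regular and 1 on high fat. Among 13 genes of lipoprotein assembly, Tm6sf2 rose by 1.14 in HF.SAAR mice (SE 0.256, adjusted p = 0.0418), with medians of -0.15 and -0.060. Its regular-fat difference was 0.35 (SE 0.252, adjusted p = 0.628). Among 12 other ester and epoxide hydrolases, Ephx1, the microsomal epoxide hydrolase, rose by 0.79 in RF.SAAR (SE 0.103, adjusted p = 0.00249) and 0.60 in HF.SAAR mice (SE 0.103, adjusted p = 0.00876), and Ephx2, the soluble one, fell by 0.75 in HF.SAAR mice (SE 0.144, adjusted p = 0.0175). The regular-fat difference of Ephx2 was -0.17 (SE 0.143, adjusted p = 0.688). The list medians were -0.045 and 0.12. Among 11 acyl-CoA thioesterases, Acot2, a mitochondrial enzyme, rose by 1.35 in RF.SAAR mice (SE 0.248, adjusted p = 0.0165). Its high-fat difference was 0.51 (SE 0.246, adjusted p = 0.426). None of 20 transcription factors and regulators known to act on liver metabolism was called by edgeR in either comparison, with medians of 0.098 and 0.15. Before adjustment 4 and 5 of these 20 had a p under 0.05, where 2014 and 1883 of all 15061 features did. DESeq2 called 2 and 1 of the 20, and 600 and 620 of all features.

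Across the 12 mice, log2 CPM of Ces3a and Ces3b had a Pearson r of 0.943 and that of Ces1e and Ces1f 0.946, while Ces1b ran opposite to Ces2a (-0.930), Ces3b (-0.925) and Ces3a (-0.923). The mice fall into the 4 diet groups, so these values largely restate the group differences. Outside the family, the genes most like Ces3a were Selenbp2 (0.981), Ghr (0.971) and Tk2 (0.960), and those most like Ces3b were Qsox1 (0.979), Ldhd (0.968) and Selenbp2 (0.954). For Ces1c, which was not called between groups in the edgeR fit, the closest named genes were Tmem9 (0.833) and Cdc42bpg (0.832). For Ces1f it was Gm2a (0.912).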

How the data were processed

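Poly(A) RNA of 12 livers was sequenced as paired ends. The authors trimmed reads with cutadapt, quantified them with kallisto against Ensembl 94 transcripts, and deposited a table per mouse of estimated counts, TPM and effective lengths. Their own comparisons used DESeq2. Group labels were read across 2 label fields whose names appear exchanged (the field named diet holds the fat content). Here the deposited estimated counts were summed per gene with GENCODE M21 (GRCm38), with 1673 unmatched transcripts (1.08% of counts) kept as features of their own, and rounded. edgeR 4.0.16 in R 4.3.3 was run with its expression filter, TMM scaling (factors 0.8575 to 1.1112), robust dispersions and the quasi-likelihood F-test, 1 coefficient per group, with Benjamini-Hochberg adjustment over 15061 features; the SE is the log2 fold change over the root of F. Deposited TPM were summed per gene for levels between genes. DESeq2 1.42.0, other filters, scalings and subsets served as alternatives. edgeR and DESeq2 were also run on simulated counts, drawn with less spread than the common spread fitted here. That run does not measure their error in these data. Each mouse of a group differed from the others beyond sampling noise in 41.2% to 66.0% of genes with at least 200 summed counts. The 10 genes and all gene lists were chosen with earlier results of these data known. Named genes were the 20 family genes, genes of the other lists called on restriction (at most 3 per list) and, for the 4 members with the highest TPM, the 3 most correlated genes. Features with no gene name among these are not named. The effective lengths, deposited beside the counts, served in 1 alternative.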

Additional observations from a re-analysis of the deposited data

How the results depend on the processing

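The direction of every called difference among the 10 genes was the same under the alternatives other than subfamily sums, and Ces1b and Ces3b kept their restriction calls on both diets under each. Scaling to library size alone moved the median log2 difference of all features by 0.16 on regular and 0.18 on high fat. On regular fat, 4 of the 10 genes were called against 6 with at least 10 counts in every mouse and 6 with DESeq2, 3 with library size alone, 3 in the fit of the compared groups alone and 3 to 5 with a mouse left out, and the calls of Ces2e and Ces3a were lost for the most abundant transcript; on high fat 7 were called, and 5 to 7 with a mouse left out. Between restricted groups 2 were called, against 1 with library size alone, 1 in the fit of the compared groups alone, 4 with DESeq2, 0 without both acinar-rich mice and 1 to 2 with a mouse left out. DESeq2 called 1 of the 10 between control groups and 1 in the interaction, and leaving out a mouse called 0 in each. Counts over all features, in the order regular-fat restriction, high-fat restriction, restricted groups, control groups and interaction, were 217, 287, 7, 0 and 1. With DESeq2 they were 600, 620, 87, 31 and 17, with library size alone 426, 785 and 3 for the first 3 and 1 for the control groups, and in the fit of compared groups 127 and 178 for the first pair and 1 for the control groups. Without both acinar-rich mice they were 135 for the second, 0 for the third and 0 for the interaction. Without a filter they were 11 for the third and 1 for the control groups, and length offsets gave 0 for the interaction. With a mouse left out they were 78 to 239, 117 to 311, 1 to 7, 0 to 2 and 0 to 2. Of the 87 features that DESeq2 called between restricted groups, 19 were pancreatic acinar markers, and edgeR called none of that list.

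Among differences that were not called, signs turned in these cases. Ces1d on regular fat was -0.026, -0.014 and -0.00046 without RF.Ctrl 2, RF.SAAR 1 and RF.SAAR 2, in a range of -0.026 to 0.12 with a mouse left out. Ces1g there was 0.0028 with RLE, 0.16 with library size, 0.0015 with length offsets, 0.0035 with DESeq2, and 0.018, 0.074, 0.089 and 0.072 without RF.Ctrl 2, RF.Ctrl 3, RF.SAAR 2 and RF.SAAR 3 (range -0.19 to 0.089). Between restricted groups Ces1c was 0.040 and 0.018 without RF.SAAR 1 and HF.SAAR 1 (range -0.13 to 0.040), and Ces2e -0.014 with library size and -0.015 and -0.013 without RF.SAAR 1 and HF.SAAR 1 (range -0.015 to 0.092). Between control groups Ces3a was -0.0045 with library size, and Ces3b 0.055 and 0.090 without RF.Ctrl 2 and HF.Ctrl 3 (range -0.087 to 0.090) and 0.087 for the main transcript. In the interaction Ces1b was -0.021 and Ces1c -0.037 without RF.SAAR 3, and Ces1c -0.014 without HF.SAAR 2, in ranges of -0.021 to 0.31 and -0.037 to 0.13. Subfamily sums, over the 8 Ces1, 8 Ces2 and 2 Ces3 genes of the annotation, gave Ces1 0.099 and 0.090 on restriction, -0.12 between restricted groups, -0.11 between control groups and -0.0094 in the interaction, Ces2 -0.028 between restricted groups and 0.098 in the interaction, and Ces3 0.042 between control groups. The cause of these turns was not tested. No paired analysis was possible because the labels give no replicate numbers; the mouse numbers used here follow the order of deposit and pair no mice. With 3 mice per group and nothing in the labels on separate experiments, the p-values measure the spread between these mice.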
